A study of Mus musculus with 6 samples.

Results

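The 31 genes described here make, regulate, move and store cholesterol. They were taken by name from the 35275 gene identifiers of the deposited tables, and fall into 7 enzymes of the mevalonate branch, 12 enzymes of the sterol branch, 5 regulators, and 7 genes of transport and esterification. All 31 were among the 16938 genes with enough reads to be tested, and each had at least 156 reads in every library, so none entered through 1 group alone. The samples are poly-A RNA of whole forebrain from 6 C57BL/6 mice, taken at postnatal day 9. The 3 conditional knockout mice (cKO; Pdgfra-CreER:Parp1fl/fl) carried a tamoxifen-inducible recombinase under Pdgfra, a gene of oligodendrocyte precursors that fibroblasts also express. The 3 controls were littermates with Parp1fl/fl and no recombinase. Both groups therefore carried the floxed alleles, and both received intraperitoneal tamoxifen daily from postnatal day 1 to day 3. Mice of both sexes were used. Whole forebrain RNA was measured, so in every result fewer cells of a type and less RNA per cell cannot be told apart.

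Cholesterol does not cross the blood-brain barrier in useful amounts, so the brain makes its own. Acetyl-CoA is built into mevalonate and isoprenoids, these are joined into squalene, squalene is closed into lanosterol, and lanosterol is trimmed to cholesterol. When sterols in the endoplasmic reticulum run low, SCAP carries the transcription factor SREBP2 to the Golgi for activation, and SREBP2 raises most genes of the pathway together; INSIG proteins hold SCAP back when sterols are plentiful. Myelin membrane is rich in cholesterol, and oligodendrocytes that myelinate make much of it themselves, while astrocytes supply sterol on ApoE particles. The question addressed here is whether these genes differed in forebrains in which oligodendroglial and myelin genes were lower.

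Total counts ran from 17262042 to 29310193 per library. The label of forebrain was matched by its markers, since 9 of 9 forebrain genes and 0 of 8 hindbrain genes had enough reads to be tested, and no hindbrain gene exceeded 20 reads in a library. The deleted gene, Parp1, had 79.8 ± 0.843 CPM in cKO mice against 91.2 ± 5.84 CPM in controls (CPM is the count scaled to the library total, TMM-normalised; ± SD, n = 3 per group), which was not called (edgeR adjusted p = 0.572). Control replicate 3 stood apart, with 8 striatal genes summing to 278 CPM there against 871 to 1112 CPM in the other libraries. In the same library 8 thalamic genes summed to 654 CPM, against 266 to 310 CPM in the others. Whether its forebrain regions were sampled in other proportions was not tested. Y-linked Ddx3y was read at more than a trace in control replicate 1 alone (1123 reads). With either of these controls left out, 0 of the 31 cholesterol genes were called.

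No cholesterol gene was called between cKO and control. Calls were made at an edgeR quasi-likelihood p, adjusted by Benjamini-Hochberg over all tested genes, under 0.05. By that rule 0 of 31 members were called, where 0.266% of all tested genes were (45 of 16938; 0.207% lower and 0.0590% higher in cKO), and the lowest edgeR adjusted p among the members was 0.785. At an unadjusted p under 0.05 there was 1 member, Npc1, of 31, where 6.27% of all tested genes passed. DESeq2 called 0 of 31 members as well, and 0.541% of all genes to which it gave an adjusted p. Groups did not overlap for 2 of 31 members, Npc1 and Abcg1, where 11.9% of all tested genes had such groups. The members' log2 fold changes ran from -0.17 to 0.17 with a median of -0.03, and 20 of 31 were negative, where 50.2% of all tested genes were; the median over all tested genes was -0.00.

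The intervals say how large a change in whole forebrain RNA could have been missed. For 28 of the 31 genes the 95% confidence interval of the fold change lay within 1.5-fold in either direction. The exceptions were Idi1 (log2 fold change from -0.90 to 0.68), Mvd (from -0.63 to 0.45) and Nsdhl (from -0.63 to 0.29), whose levels differed most between mice. Mbp, which encodes myelin basic protein, had an interval that ended at -1.04, and the interval of each of the 31 cholesterol genes lay wholly above it. Astrocytes also make sterol, so a change confined to oligodendroglia could be larger than these intervals show. Levels within oligodendroglia were not measured.

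**Figure D1:**
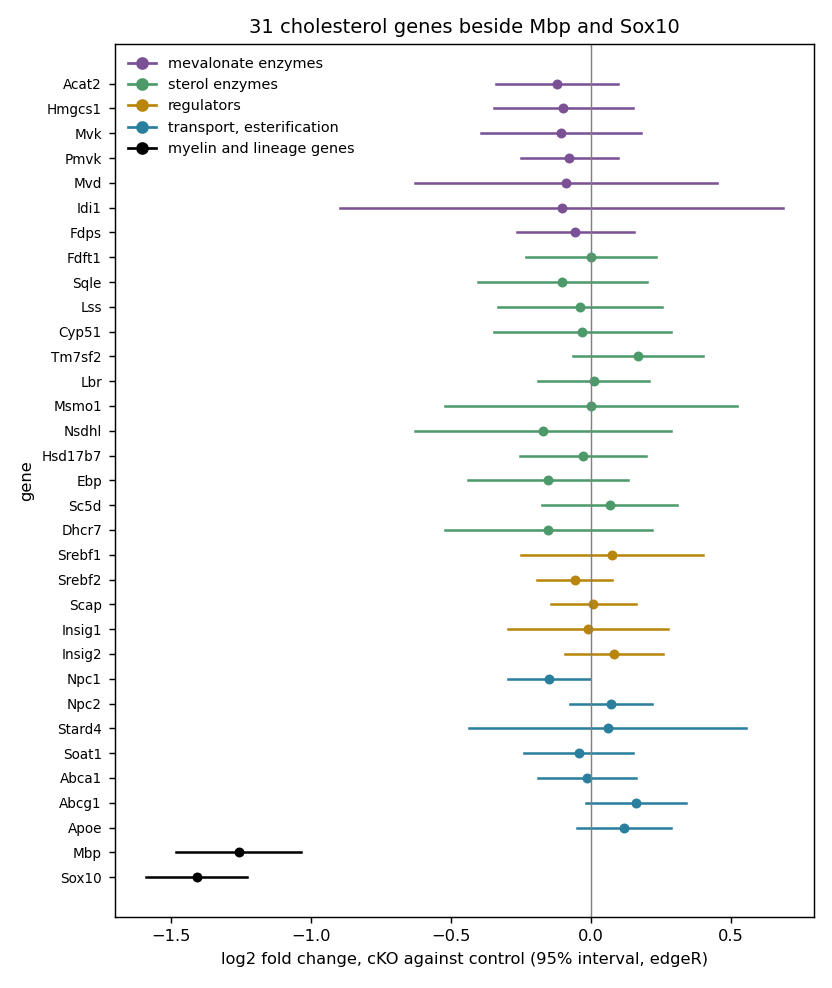
Log2 fold change of cKO against control (x axis) for the 31 cholesterol genes, Mbp and the lineage factor Sox10 (y axis), with 95% confidence intervals from edgeR and colours for the role of each gene. The 31 points lie between -0.17 and 0.17, and each of their intervals lies above those of Mbp and Sox10.

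Because the levels of the enzymes moved together between mice, with correlations that follow the single genes, the bases before their start sites were searched for motifs of factors known to act on this pathway. RefSeq promoters (GRCm38.p6, the build of mm10) were found for 25 of the 31 members, 16 of them enzymes, and the 250 bases before each start were searched on both strands. The motif CCAAT, read by NF-Y, a partner of SREBPs at many sterol genes, was present for 15 of 16 enzymes and 21 of 25 members, and for 39.6% of the tested genes in that table. Acat2 was the enzyme without it. The motif GGGCGG, read by Sp1, was present for 15 of 16 enzymes and 60.4% of the tested genes. The sterol element TCACNCCAC was present for 1 of 25 members, Hmgcs1, and 1.23% of the tested genes. The direct repeat read by the oxysterol receptors LXR was present for 0 of 25, and for 0.0148% of all 27025 genes in the table. A match is a run of letters and not a measured site, and the searched motifs do not overlap each other in the stretches printed here.

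The 5 stretches that follow lie before the start site and are written 5′ to 3′ on the gene's strand; capitals mark CCAAT or its reverse complement and, in Hmgcs1 alone, the sterol element. Hmgcs1 is shown because it holds both and is the most abundant enzyme (chr13:119690151-119690350, plus strand), Mvk for its repeated matches (chr5:114444069-114444268, plus strand), Mvd (chr8:122443423-122443502, minus strand) and Nsdhl (chrX:72918401-72918520, plus strand) as enzymes with wide swings between mice, and Apoe (chr7:19699189-19699268, minus strand) as a member whose level did not rise and fall with theirs.
Hmgcs1: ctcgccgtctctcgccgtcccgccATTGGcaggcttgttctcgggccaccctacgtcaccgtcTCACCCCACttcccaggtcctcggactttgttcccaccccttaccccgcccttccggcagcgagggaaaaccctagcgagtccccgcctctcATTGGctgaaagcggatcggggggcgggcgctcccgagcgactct
Mvk: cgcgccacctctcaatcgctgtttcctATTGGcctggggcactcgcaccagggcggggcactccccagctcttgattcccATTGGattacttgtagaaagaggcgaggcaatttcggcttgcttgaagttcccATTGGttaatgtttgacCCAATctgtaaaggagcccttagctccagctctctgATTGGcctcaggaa
Mvd: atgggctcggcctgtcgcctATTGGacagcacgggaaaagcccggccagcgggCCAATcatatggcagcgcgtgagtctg
Nsdhl: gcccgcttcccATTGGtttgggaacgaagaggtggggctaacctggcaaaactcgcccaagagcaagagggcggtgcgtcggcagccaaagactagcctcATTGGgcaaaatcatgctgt
Apoe: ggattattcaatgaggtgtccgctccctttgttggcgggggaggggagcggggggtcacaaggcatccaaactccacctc

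In the Mvk stretch there were 5 matches to CCAAT, and the 4 on the reverse strand began 53 bases apart from each other in turn. At least 5 matches were found in 0.213% of all 32851 windows of 250 bases. The Apoe stretch held no match, nor did the rest of its 250-base windows for any of its 3 start sites in the table. CCAAT was also present for Npc2, Srebf1 and Soat1, whose r with the mean of the enzymes was 0.05, 0.40 and 0.54. It was absent for Scap (-0.97) and Abca1 (0.38), but also for Acat2 (0.91). Whether CCAAT goes with the shared movement was not tested.

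All 7 mevalonate enzymes had negative log2 fold changes, from -0.12 to -0.06 (median -0.10), and 0 of 7 were called. Hmgcs1, the cytosolic synthase that condenses acetoacetyl-CoA with acetyl-CoA, was the most abundant enzyme of the pathway per length, at a mean of 214 FPKM (fragments per kilobase, also scaled for library size). Its levels were 780, 667 and 560 CPM in cKO replicates 1, 2 and 3 and 654, 756 and 739 CPM in control replicates 1, 2 and 3. The groups overlapped, since cKO held both the highest and the lowest value, and the log2 fold change was -0.10 ± 0.11 (SE; edgeR adjusted p = 0.915).

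Idi1, the isomerase that makes the reactive isoprenoid unit, varied more between mice than any other member. It was at 30.6, 20.2 and 15.8 CPM in the cKO mice and at 17.4, 30.1 and 23.5 CPM in the controls, a range of 1.94-fold over the 6 libraries. Mvd, the decarboxylase just before it, whose promoter stretch holds CCAAT on both strands, was at 60.0, 47.0 and 32.9 CPM in cKO and at 47.6, 53.8 and 46.9 CPM in controls. The cKO mice spanned 1.82-fold for Mvd and the controls 1.15-fold. Acat2, the thiolase that supplies acetoacetyl-CoA, had the lowest fold change of the branch, at 97.5 ± 15.1 CPM in cKO mice against 106 ± 3.76 CPM in controls (± SD, n = 3 per group; log2 fold change -0.12, edgeR adjusted p = 0.883). Mvk and Pmvk, the kinases that phosphorylate mevalonate in turn, had means of 46.2 and 48.5 CPM in cKO and 49.6 and 51.1 CPM in controls. Fdps, which builds farnesyl diphosphate for sterols and for protein prenylation, had means of 111 CPM in cKO mice against 115 CPM in controls. In each of these genes cKO replicate 1 had the highest level and cKO replicate 3 the lowest of the 6 libraries.

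The 12 sterol enzymes were centred closer to 0, with a median log2 fold change of -0.03, 8 negative and 4 positive values, and 0 of 12 called. Fdft1, the squalene synthase that commits isoprenoids to sterols, was at 133 ± 18.9 CPM in cKO mice against 133 ± 12.6 CPM in controls (± SD, n = 3 per group; log2 fold change 0.00, edgeR adjusted p = 0.9997). Sqle, the squalene monooxygenase and a slow step of the pathway, was at 187, 165 and 133 CPM in cKO replicates 1, 2 and 3 and at 151, 181 and 189 CPM in control replicates 1, 2 and 3. The Sqle groups overlapped, with the lowest level in cKO replicate 3 and the highest in control replicate 3. Lss, which closes squalene epoxide into lanosterol, had a log2 fold change of -0.04, and Cyp51, the lanosterol demethylase, one of -0.03.

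Of the enzymes that trim lanosterol, Msmo1, the C4 methyl oxidase, was at 114, 84.5 and 67.5 CPM in cKO and at 77.0, 95.2 and 93.5 CPM in controls. Its means of 88.8 and 88.6 CPM were nearly the same, and its spread was 1.69-fold among cKO mice against 1.24-fold among controls. Nsdhl, the X-linked sterol dehydrogenase of the same demethylation, had the lowest log2 fold change of all members, -0.17 ± 0.19 (SE; edgeR adjusted p = 0.916). Its levels were 38.2, 28.1 and 21.5 CPM in cKO and 30.7, 33.3 and 34.5 CPM in controls, so that the cKO mice lay on both sides of the controls. Ebp, the X-linked sterol isomerase, Hsd17b7, a ketoreductase, and Sc5d, a desaturase, had log2 fold changes of -0.15, -0.03 and 0.07. Dhcr7, which reduces 7-dehydrocholesterol in the last step of one route to cholesterol, had means of 51.0 CPM in cKO mice against 56.4 CPM in controls (log2 fold change -0.15).

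Tm7sf2 and Lbr are the pair of proteins with C14 sterol reductase activity. Tm7sf2 had the highest log2 fold change of all members, 0.17 ± 0.11 (SE; edgeR adjusted p = 0.847), with 45.1, 38.7 and 33.9 CPM in cKO and 33.3, 38.5 and 32.7 CPM in controls. The values of cKO replicates 1 and 2 lay above every control, the latter only just, and that of cKO replicate 3 lay among the controls. Lbr, which is also a receptor of the nuclear lamina, was the steadiest enzyme, at 19.5 to 21.5 CPM in cKO and 19.2 to 20.6 CPM in controls. Exons of Hmgcs1, Idi1, Fdft1, Lss, Cyp51, Lbr, Srebf1, Scap and Npc1 overlap a gene on the opposite strand, and those of Fdps, Tm7sf2, Lbr and Srebf1 another gene on the same strand. The strand setting of the counting is not given in the sources used here, so these counts are less certain.

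Among the 5 regulators 0 were called. Srebf2, which encodes SREBP2, was at 250, 233 and 225 CPM in the cKO mice and at 243, 248 and 247 CPM in the controls (log2 fold change -0.06 ± 0.06 SE, edgeR adjusted p = 0.907). Insig1, itself a target of SREBP2, was at 112, 93.1 and 81.0 CPM in cKO and at 84.1, 103 and 101 CPM in controls, with means of 95.5 and 95.9 CPM. Insig1 thus had its highest and its lowest level in the same mice as the mevalonate enzymes. Insig2, its relative that is less dependent on sterols, stayed between 29.2 and 34.9 CPM. Scap ran the other way, at 83.6, 92.9 and 97.5 CPM in cKO and at 95.2, 88.7 and 89.0 CPM in controls. Srebf1, whose products act more on fatty acid synthesis, had the widest range of the regulators, 1.53-fold, with its highest level in cKO replicate 2 (53.2 CPM).

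The 7 genes of transport and esterification had a median log2 fold change of 0.06, and 0 were called. Npc1, which exports cholesterol from lysosomes (chromosome 18, 12189692 to 12236400 in mm10), was at 43.8, 47.2 and 46.3 CPM in cKO replicates 1, 2 and 3. In control replicates 1, 2 and 3 it was at 52.4, 50.6 and 49.5 CPM. All 3 cKO values lay below all 3 controls, the log2 fold change was -0.15 ± 0.07 (SE), and this did not pass (edgeR adjusted p = 0.785). Abcg1, which loads cholesterol onto lipoprotein particles (chromosome 17, 31057675 to 31117988), was at 24.8, 24.3 and 26.1 CPM in cKO and at 22.5, 22.0 and 22.7 CPM in controls. All 3 cKO values lay above all 3 controls, with a log2 fold change of 0.16 ± 0.08 (SE; edgeR adjusted p = 0.835). Two-sided exact permutation tests of the levels gave p = 0.1 for Npc1 and Abcg1, the lowest value possible with 3 mice in each group. Groups of this size that do not overlap always give this value, so it adds nothing to the lack of overlap. Such groups were found for 11.9% of all tested genes.

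Apoe, the main carrier of sterol between brain cells, was by far the most abundant member per length, at a mean of 1185 FPKM. It was at 1647, 1727 and 1761 CPM in cKO and at 1686, 1465 and 1582 CPM in controls, and the groups overlapped (log2 fold change 0.12 ± 0.08 SE, edgeR adjusted p = 0.852). Microglia also express Apoe, and the 12 microglial marker genes summed to 601, 544 and 661 CPM in cKO replicates 1, 2 and 3 and to 524, 453 and 345 CPM in control replicates 1, 2 and 3. Of these 12, 0 were called, 12 had a positive log2 fold change and 8 had an unadjusted p under 0.05. Control replicate 3, the library that stood apart, was the lowest of the 6 for 12 of 12, at a mean centred log2 level of -0.57 against 0.03 and -0.16 in control replicates 1 and 2. The part of microglial RNA in the level of Apoe was not tested. Abca1, the transporter that lipidates ApoE, had means of 91.2 CPM in cKO mice against 92.1 CPM in controls. Npc2, the soluble partner of Npc1, had a log2 fold change of 0.07, and Soat1, which esterifies cholesterol for storage, one of -0.04. Stard4, a cytosolic sterol carrier, was at 71.9, 54.4 and 43.9 CPM in cKO and at 45.9, 61.0 and 55.8 CPM in controls. In Stard4, as in most enzymes, cKO replicate 1 was the highest and cKO replicate 3 the lowest library.

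**Figure D2:**
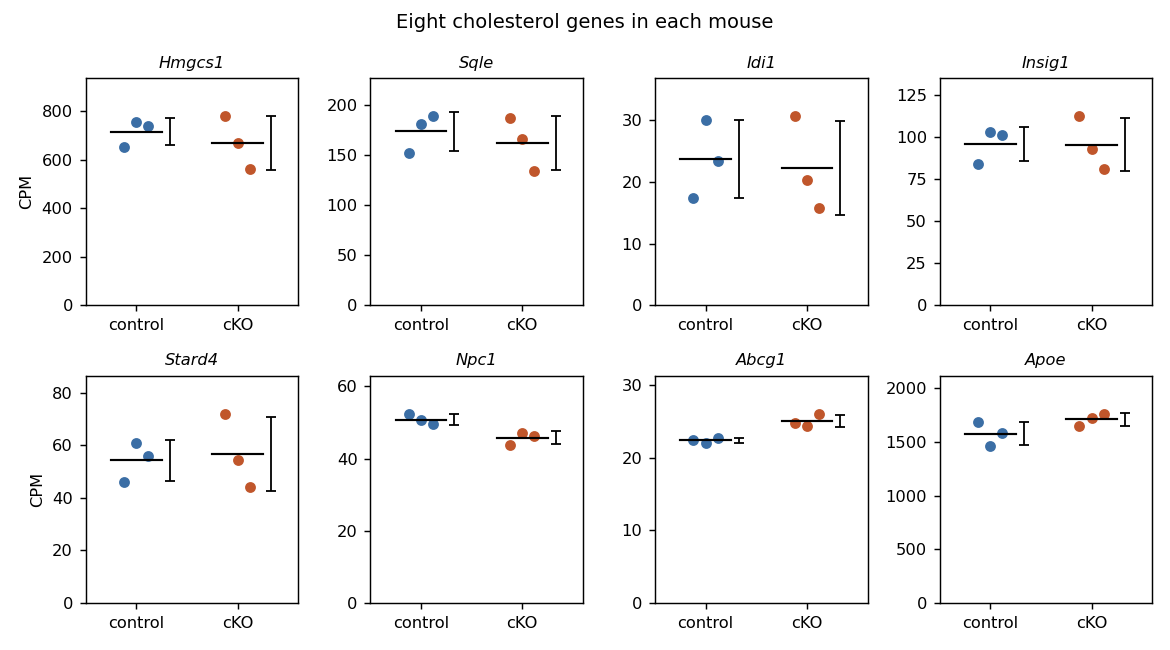
Levels in CPM (y axis, from 0) of 8 cholesterol genes in each control (blue) and cKO (orange) mouse, with a line at the group mean and a bar of 1 SD beside it (n = 3 mice each; replicates 1, 2 and 3 from left to right). Hmgcs1, Sqle, Idi1, Insig1 and Stard4 spread widely within cKO and overlap the controls, while the narrow groups of Npc1 and Abcg1 do not overlap.

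The pathway as a whole can be set beside myelin genes of the same libraries, though its enzymes are not confined to oligodendrocytes. Summed over the 19 enzymes of both branches, the level was 2223, 1864 and 1588 CPM in cKO replicates 1, 2 and 3 and 1794, 2098 and 2050 CPM in control replicates 1, 2 and 3. The groups overlapped, with means of 1892 ± 318 CPM in cKO mice against 1981 ± 163 CPM in controls (± SD, n = 3 per group). The 14 tested genes of a myelin list summed to 296, 331 and 325 CPM in cKO and to 600, 509 and 660 CPM in controls, with no overlap. Of those 14, 6 were called lower in cKO (Mbp, Myrf, Ugt8a, Gjc3, Mag and Cnp), where 0.207% of all tested genes were. Negative log2 fold changes were found for 11 of the 14, where 50.2% of all tested genes had them. The list's median log2 fold change was -0.78, against -0.08 for the 19 enzymes. Myrf, the transcription factor of myelin genes, fell by 1.66 on the log2 scale (edgeR adjusted p = 1.18e-04), Mbp by 1.26, Gjc3, a glial connexin, by 1.75, and Ugt8a, which makes galactosylceramide, by 1.44. Mag fell by 1.22 and Cnp by 0.52. Of the lists for newly formed oligodendrocytes and their precursors, 6 of 11 and 4 of 9 tested genes were called lower in cKO. These were Bcas1, Enpp6, Gpr17, Sox10, Itpr2 and Sirt2 in the former and Neu4, C1ql1, Olig2 and Tnr in the latter. Fold changes were negative for 10 of the 11 and 9 of the 9. Sox10, a factor of the whole lineage, was at 16.8 ± 0.301 CPM in cKO mice and 44.7 ± 2.98 CPM in controls, and Pdgfra itself, with 119 ± 17.7 and 163 ± 14.9 CPM, was not called (edgeR adjusted p = 0.253).

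**Figure D3:**
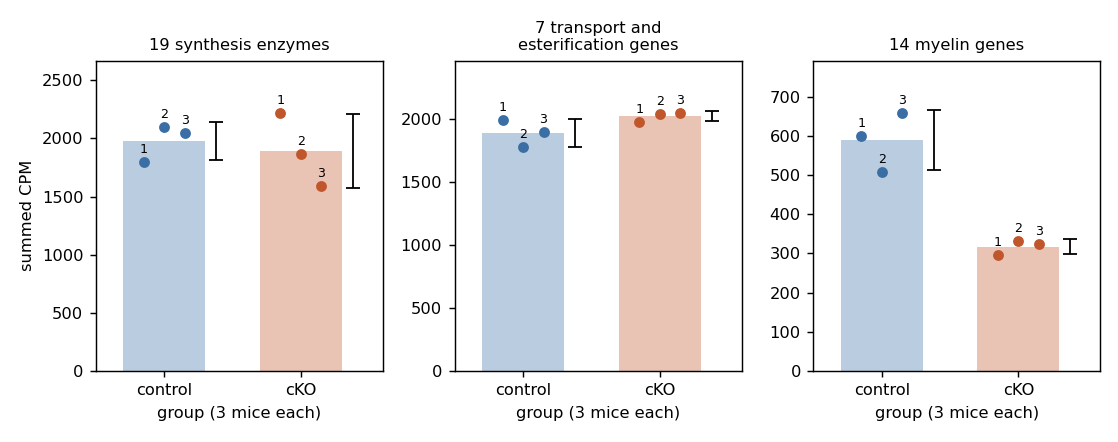
Summed CPM (y axis, from 0) of the 19 synthesis enzymes, the 7 transport and esterification genes and 14 myelin genes, with bars at the mean, error bars of 1 SD and numbered points for the mice (n = 3 per group). The enzyme sums of the groups overlap, from 1588 to 2223 CPM, and the myelin sums do not.

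The enzymes moved tightly together between mice, in an order that did not follow genotype. Each gene's log2 CPM was centred on its own mean over the 6 libraries and averaged over the 19 enzymes. This mean was 0.23, -0.06 and -0.27 in cKO replicates 1, 2 and 3 and -0.11, 0.13 and 0.07 in control replicates 1, 2 and 3. In cKO replicate 1 and in control replicate 2, 19 of 19 enzymes lay above their own mean. In cKO replicate 3 none (0 of 19) did, and in cKO replicate 2 only 1. The highest library was cKO replicate 1 for 17 of the 19 enzymes, and the lowest was cKO replicate 3 for 15 of them. Group membership held a median of 5.47% of an enzyme's variance over the libraries, where the median over all tested genes was 14.2%.

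**Figure D4:**
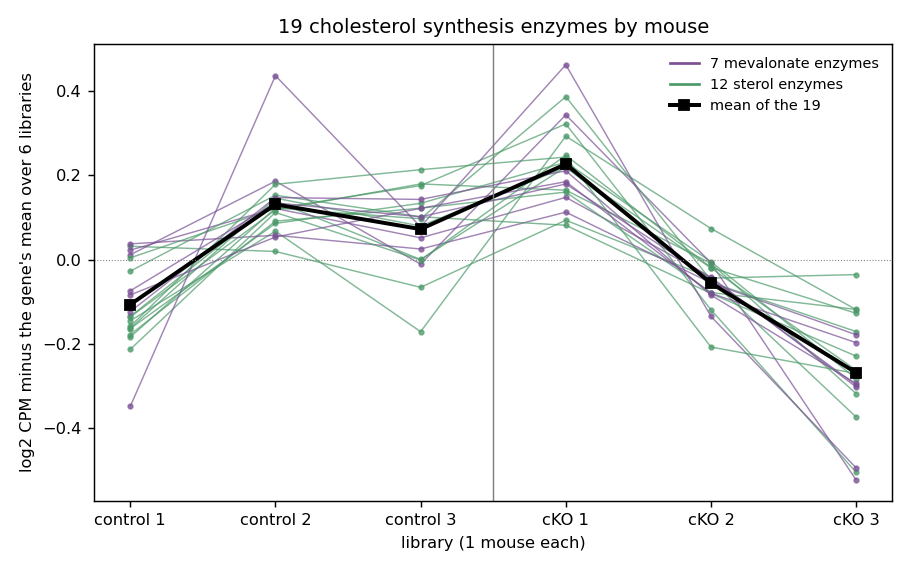
Log2 CPM of each of the 19 synthesis enzymes minus its mean over the 6 libraries (y axis), in each control and cKO mouse (x axis); thin lines join the values of 1 gene, and the black line is the mean of the 19. The enzymes stand highest together in cKO replicate 1 and lowest together in cKO replicate 3, at means of 0.23 and -0.27.

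Over the 171 pairs of enzymes, the median Pearson r across the 6 libraries was 0.87, and 171 of 171 pairs were positive. Over all pairs of tested genes the median was -0.00 and 50.0% were positive. Above 0.8 lay 69.0% of the enzyme pairs and 3.95% of all pairs. With the group means taken out, the median over enzyme pairs was 0.91, against -0.00 over all pairs, so the likeness was present within the groups. These values describe 6 libraries that share preparation and differ in depth, and genes are not independent replicates. The single leading component held 83.0% of the enzymes' standardised variance and 33.3% of that of all tested genes. Leaving out each library in turn gave medians from 0.83 to 0.92. Microglial markers had a similar median of 0.91 and striatal genes one of 0.99, so tight co-movement was not particular to the enzymes. Those lists had other profiles: the r of single microglial genes with the enzyme mean had a median of -0.38, and the striatal genes were lowest in control replicate 3.

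**Figure D5:**
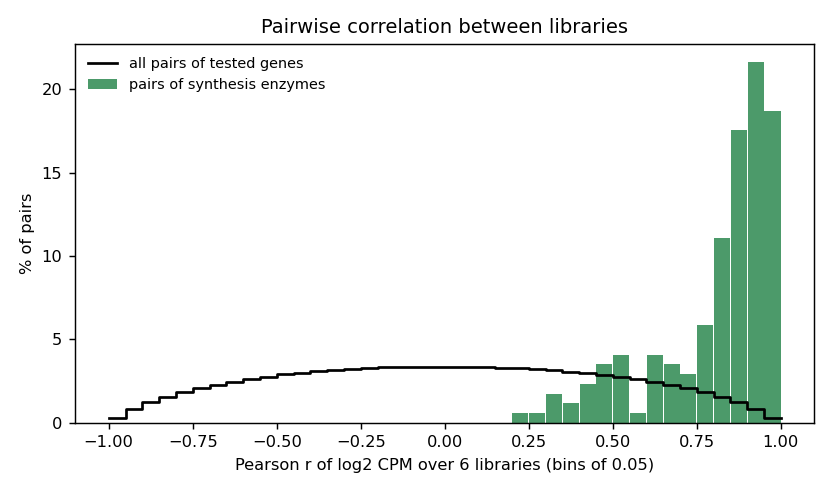
Distribution of Pearson r of log2 CPM over the 6 libraries (x axis, bins of 0.05) as a percentage of pairs (y axis), for the 171 pairs of synthesis enzymes (green bars) and for all pairs of the 16938 tested genes (black line). The enzyme pairs pile up at high r with a median of 0.87, while all pairs are centred on -0.00.

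Single members were set against the mean of the enzymes, leaving the gene itself out, over the same 6 libraries. The 7 mevalonate enzymes had r from 0.88 to 0.98, and Lss, Msmo1, Cyp51 and Fdft1 of the sterol branch had 0.98, 0.98, 0.96 and 0.95. The 2 enzymes below 0.8 were the C14 reductases Tm7sf2 (0.63) and Lbr (0.51). With the group means taken out, Tm7sf2 had 0.89, near Pmvk (0.90) and Hsd17b7 (0.88), and Lbr alone among the enzymes stayed below 0.8 (0.54). Lbr also varied least of the enzymes, with an SD of log2 CPM of 0.059 over the 6 libraries at 356 to 564 reads. Its r therefore rests on small differences, and whether it departs from the other enzymes was not tested. Outside the enzymes, Insig1 had an r of 0.98, Stard4 one of 0.95 and Srebf2 one of 0.90, although Srebf2 itself spanned only 1.11-fold. Scap had -0.97, Apoe -0.69, Abcg1 -0.40, Npc1 -0.18 and Npc2 0.05. With the group means taken out, Npc1 had -0.77, Apoe -0.77 and Abcg1 -0.60, while Npc2 had 0.18 and Abca1 0.37. Npc1 and Abcg1 varied little within the groups, with SDs of log2 CPM of 0.056 and 0.050 in cKO and 0.041 and 0.023 in controls. Whether Npc1, Apoe and Abcg1 ran against the enzymes was not tested. Insig2 had 0.60 over the 6 libraries and 0.87 within the groups. Of the 7 transport genes only Stard4 exceeded 0.8, by either measure. Among all 16919 tested genes other than the enzymes, 3.64% exceeded 0.8. Their lowest r was -0.99, and the share as negative as Scap was not counted.

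The spread of the enzymes was wider among cKO mice than among controls. The SD of log2 CPM was larger in cKO for 18 of 19 enzymes, with Hsd17b7 the exception, and its median was 0.24 in cKO and 0.14 in controls. Of all other tested genes, 39.4% had the larger SD in cKO. Since the enzymes move as one, this is close to a single observation on 3 mice against 3, and the difference in spread was not tested. Total counts in cKO replicates 1, 2 and 3 were 19934003, 24916865 and 29310193, the reverse of the order of the enzymes there. Among controls the shallowest library, replicate 1 with 17262042 counts, had the lowest enzyme level. The part of depth in the pattern was not tested. Without cKO replicate 3, 15 of the 19 enzymes had a positive log2 fold change, and without cKO replicate 1, 18 of 19 had a negative one, with 0 called either time.

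Other genes of sterol handling gave no call. Of 27 tested genes in a further list of receptors, nuclear receptors, oxysterol enzymes and membrane carriers, 0 were called, with a median log2 fold change of 0.07. Groups did not overlap for 8 of the 27, where 11.9% of all tested genes had such groups, and the 4 genes with the smallest p were among the 8. Hsd17b12, an enzyme of fatty acid elongation, was at 48.9 ± 2.12 CPM in cKO mice against 59.1 ± 3.53 CPM in controls (± SD, n = 3 per group; log2 fold change -0.28, edgeR adjusted p = 0.264). Apod, a lipocalin that binds lipids, was at 62.2, 80.5 and 54.9 CPM in cKO and at 30.3, 28.2 and 49.4 CPM in controls (log2 fold change 0.87, edgeR adjusted p = 0.719). Gramd1a and Gramd1b, which carry cholesterol from the plasma membrane to the endoplasmic reticulum, had log2 fold changes of 0.15 and 0.13.

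Genes of fatty acid and glycerolipid synthesis, many of them also driven by SREBPs, shared the pattern in part. Of 17 tested, 0 were called, and their median log2 fold change was -0.02. Idh1, which supplies NADPH in the cytosol, was at 146, 136 and 117 CPM in cKO and at 154, 167 and 177 CPM in controls, with groups that did not overlap (log2 fold change -0.32, edgeR adjusted p = 0.279). Me1, malic enzyme, Fads2, a desaturase, and Acss2, which makes acetyl-CoA from acetate, had log2 fold changes of -0.12, -0.10 and -0.11. The r of these 17 genes with the enzyme mean had a median of 0.73 and ran from -0.94 to 0.99. Of the 17, 6 exceeded 0.8, and 3 were negative: Agpat3 (-0.94), an acyltransferase, Acacb (-0.75), a mitochondrial acetyl-CoA carboxylase, and Gpam (-0.27), which starts glycerolipid synthesis. The lowest library of the 6 was cKO replicate 3 for 13 of the 17, as for most cholesterol enzymes. The myelin genes had a median r of 0.16 with the enzyme mean, and 0 of 14 exceeded 0.8.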

How the data were processed

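Forebrain RNA of 3 cKO and 3 control mice was selected on poly-T beads and made into directional libraries, per the labels' protocols. The authors deposited counts, as whole reads per Ensembl gene. Per the submitters' processing notes the tools included STAR 2.5 and HTSeq 0.6.1 and the build was mm10, with no roles stated; the strand setting of the counting, like its annotation, is not given in the sources used here. The deposited FPKM values equal count over table total and 1 fixed length per gene (whole within 0.01 bp in 100% of values). Names and coordinates came from GENCODE M21 on mm10. Counts were filtered with filterByExpr (minimum count 10, total 15), scaled by TMM and tested with edgeR 4.0.16 in R 4.3.3 (quasi-likelihood, robust, two-sided, Benjamini-Hochberg over all tested genes). Log2 CPM for correlations used a prior count of 1; numpy 2.4.6 computed them. The alternatives were other scalings and filters, DESeq2 1.42.0, limma 3.58.1 (voom, and log2(FPKM + 1) or log2(FPKM + 0.1)), a replicate block, and leaving out each library.

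On simulated counts the fit recovered the changes put in, and unadjusted p-values kept their level. When each gene's own estimated dispersion was taken as true, the share of false calls exceeded the nominal rate, so counts of calls over all genes may hold more false ones than the threshold implies. The members and lists were chosen with earlier results of these data known. Members are all named; of other lists, called genes and the 4 with the smallest p were named from the sterol, fatty acid and myelin lists, and Mbp, Sox10, Pdgfra and Parp1 in any case. Outside that rule, Agpat3, Acacb, Gpam, Acly, Mbtps1 and the single astrocyte genes were named for their r with the enzyme mean, after it was seen. Mbtps2 was named beside Mbtps1. Whether mice of a group shared a litter is not given beyond "littermate". The p-values set group differences against the spread between these mice and take the mice as independent, so shared litters could make them too small.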

Additional observations from a re-analysis of the deposited data

How the results depend on the processing

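The count of cholesterol genes called was 0 of 31 under all 18 alternatives, with a lowest adjusted p of 0.579 (limma-voom). The count of all genes called, 45 by edgeR, was 111 with no filter on low counts, 108 by DESeq2, 24 by limma on log2(FPKM + 1) or log2(FPKM + 0.1) above a mean FPKM of 0.5, and 21 unfiltered on log2(FPKM + 1), and it ran from 28 (without control replicate 1) to 60 (without control replicate 3) when each library was left out. The median log2 fold change ran from -0.22 to 0.020 for the 19 enzymes, from -0.16 to 0.049 for the 12 sterol enzymes and from -0.036 to 0.084 for the transport genes when each library was left out. The median pairwise r of the enzymes ran from 0.83 to 0.92. Deviations of same-numbered mice from their group means had r of 0.0074, -0.043 and 0.010, and those of other pairs ran from -0.077 to 0.091. With so few mice this cannot show whether same-numbered mice were paired by litter or handling. With the replicate number as a block 32 genes and 0 members were called.

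No member's direction is called, and those near 0 changed sign with the scaling or the test. Fdft1 was at -0.0016 with DESeq2 size factors, -0.0032 with library size only, -0.0027 by DESeq2, -0.035 by limma-voom, -0.0080 on log2(FPKM + 1) with and without the filter, -0.0083 on log2(FPKM + 0.1) and -0.0049 with the replicate block. Msmo1 was at 0.0035 with upper-quartile factors, 0.0050 with no filter and 0.00061 with a mean of at least 1 CPM. Scap was at -0.0016 on log2(FPKM + 1), with and without the filter, and at -0.0017 on log2(FPKM + 0.1). By limma-voom Lbr was at -0.027 and Abca1 at 0.062. With any 1 library left out, 20 members changed sign at least once. Their log2 fold changes ran from -0.22 to 0.011 for Hmgcs1, from -0.25 to 0.0027 for Mvk, from -0.31 to 0.11 for Mvd, from -0.40 to 0.11 for Idi1 and from -0.17 to 0.02 for Fdps. They ran from -0.12 to 0.078 for Fdft1, from -0.22 to 0.016 for Sqle, from -0.16 to 0.072 for Lss, from -0.16 to 0.088 for Cyp51 and from -0.035 to 0.029 for Lbr. The range was from -0.22 to 0.16 for Msmo1, from -0.40 to 0.0081 for Nsdhl, from -0.12 to 0.02 for Hsd17b7, from -0.046 to 0.14 for Sc5d and from -0.085 to 0.22 for Srebf1. It was from -0.047 to 0.066 for Scap, from -0.14 to 0.093 for Insig1, from -0.14 to 0.21 for Stard4, from -0.11 to 0.015 for Soat1 and from -0.082 to 0.063 for Abca1. Without cKO replicate 3, 14 of the 31 signs changed. Each member had at least 156 reads in every library.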

Other observations

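Astrocytes make much of the brain's sterol, and single astrocyte genes followed the enzymes closely while others ran against them; these genes were chosen after their values were seen. Over the 6 libraries, the r with the mean of the 19 enzymes was 0.96 for Aldh1l1, a folate enzyme, and 0.88 for Aqp4, the water channel, but -0.91 for Slc1a2 and -0.89 for Slc1a3, the glutamate transporters. The 12 astrocyte genes had a median r of -0.16 and summed to 4064, 4414 and 4294 CPM in cKO replicates 1, 2 and 3 and to 4246, 4043 and 3930 CPM in control replicates 1, 2 and 3, with 0 of 12 called. The sum joins genes that ran with the enzymes and genes that ran against them. The part of astrocyte RNA in the enzyme levels was not tested. Mbtps1, one of the Golgi proteases that activate SREBPs, had an r of -0.95, close to that of Scap at -0.97. Mbtps2, another of these proteases, had -0.046. Acly, which makes cytosolic acetyl-CoA, had 0.99. Mbtps1 and Acly were also chosen after their values were seen. Among all tested genes other than the enzymes r ran from -0.99 to 0.997. How many of them lay as low as Mbtps1 or Scap was not counted, so no pattern of regulators can be read from these values.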
